A study of Homo sapiens with 6 samples.

Results

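The genes described here are G0S2 and 9 genes of lipid droplet turnover, namely PNPLA2, ABHD5, LIPE, MGLL, PLIN2, PLIN3, DGAT1, DGAT2 and HILPDA. They were followed through every probe set that carries their symbol alone in the platform annotation, 19 of the 54613 probe sets tested. G0S2 was chosen by its fold change between calactin and untreated arrays, the comparison made below, so its values are given as a description without a test. The other 9 genes were chosen for their function, with earlier results of the same arrays known. RNA came from K562, a human line grown from a chronic myeloid leukaemia. There were 3 arrays of cells kept for 12 h with calactin, a cardenolide that inhibits the sodium pump, labelled as 0.15 mM. They were set against 3 arrays of untreated K562 cells of the same 12 h. The labels call the 3 samples of a group biological replicates and do not say what was separate between them, so the p-values measure the spread between these samples.

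Cells store fatty acids as triacylglycerol in lipid droplets. DGAT1 and DGAT2 make triacylglycerol, and perilipins coat the droplet. Lipolysis runs in steps: ATGL, the product of PNPLA2, removes the first fatty acid with the help of its coactivator ABHD5, hormone-sensitive lipase (LIPE) removes the next, and monoacylglycerol lipase (MGLL) the last. G0S2 and HILPDA are small proteins that bind ATGL and inhibit it. HILPDA is known as a target of hypoxia-inducible factors.

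Markers of the labelled line and of other cell types were compared by their mean over the 6 arrays. Of 8 measured erythroid and K562 markers, 8 lay above the median signal of all probe sets, among them GATA1, TAL1, KLF1 and HBZ. LMO2, TFRC and GATA1 were called lower with calactin and TAL1 higher, and the summed marker signal ran from 25926 to 34360 units with calactin and from 31717 to 37256 units without. Of 7 adipocyte markers, 2 lay above the median of all probe sets, CFD and CIDEC, while ADIPOQ, LEP, PLIN1, FABP4 and RETN lay below it. The adipocyte markers summed to 726 to 797 intensity units in calactin arrays and to 822 to 887 in untreated arrays. Of 5 macrophage markers 2 lay above the median, LYZ and CSF1R, and 5 of 6 hepatocyte markers did, at mean signals of 28.1 to 53.1 units, while ALB was at 9.94 units with calactin and 3.83 without. None of the adipocyte, macrophage and hepatocyte markers was called by limma, and at an unadjusted p under 0.05 CFD and LYZ were lower. Their part in the results below was not tested. Fewer cells that hold a message and less message per cell cannot be told apart on these arrays. Array medians were 31.1 to 32.0 units with calactin and 33.0 to 34.3 without, so every calactin array lay slightly below every untreated one.

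Among the 10 genes, the message of one inhibitor of ATGL was higher with calactin, while that of the other and of both measured coat proteins was lower. G0S2 stood at 4.35 times its untreated level, HILPDA fell 2.24-fold, and PLIN2 and PLIN3 fell 1.57-fold and 1.62-fold on the log2(signal + 16) scale. The calls of PLIN2 and PLIN3 depended on the scaling of the arrays, and that of PLIN2 also on averaging its probe sets. The message of ATGL itself and of DGAT1 showed no called difference. ABHD5 was higher in each replicate number, but was not called as deposited without pairing, and its calls changed with the pairing, the scaling and other settings. LIPE, MGLL and DGAT2 gave signals near the median of all probe sets.

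**Figure D1:**
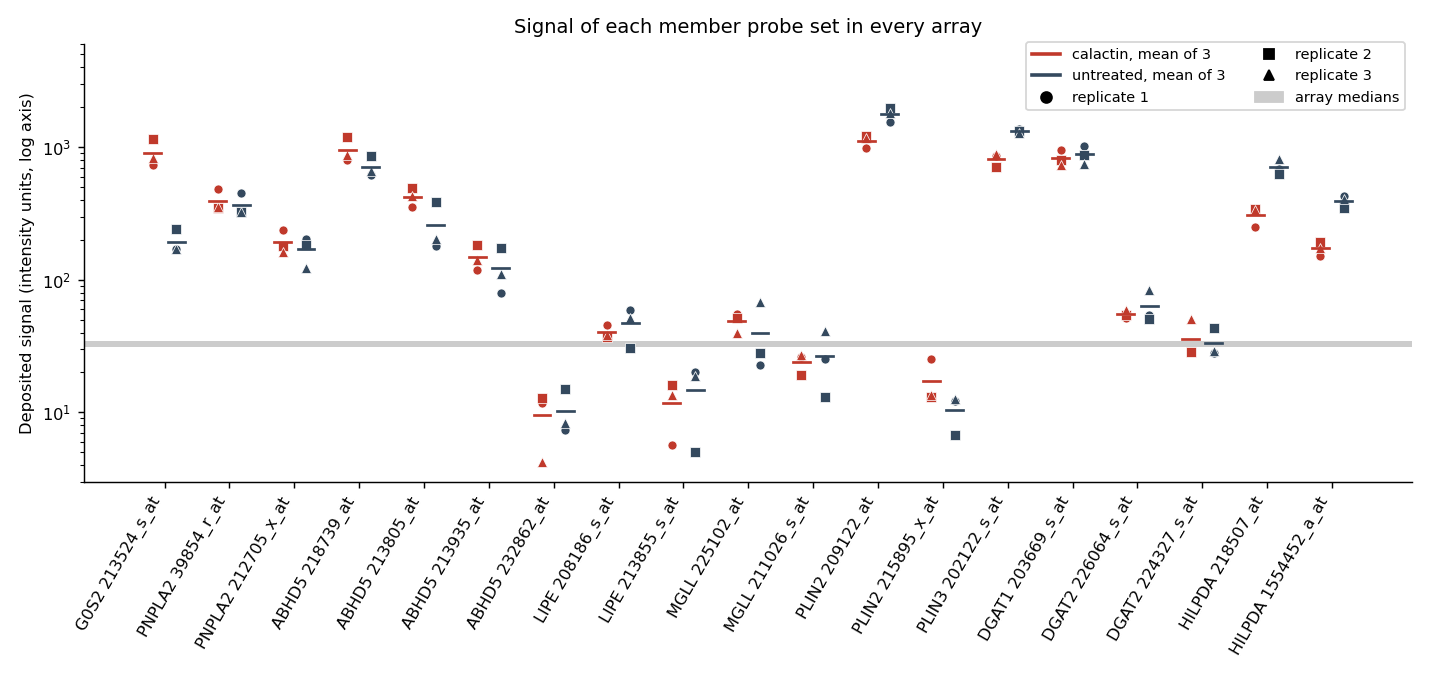
Deposited signal (intensity units, log axis) of the 19 member probe sets in each array, calactin left of untreated, with bars at the mean of 3 arrays and a grey band for the array medians, 31.1 to 34.3 units. G0S2 lies higher and HILPDA, PLIN2 (209122_at) and PLIN3 lie lower on all 3 calactin arrays than on any untreated one, and the 4 dimmest probe sets lie below the band on average.

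Of the 19 probe sets, 15 had a mean above the median of all probe sets and 12 lay above the array's median on all 6 arrays. In limma's test over all 54613 probe sets the threshold was a Benjamini-Hochberg adjusted p under 0.05. Of the 18 member probe sets other than that of G0S2, 0 were called higher, where 3.68% of all probe sets were. The threshold was passed in the other direction by 4 of the 18, those of HILPDA, PLIN2 and PLIN3, where 10.3% of all probe sets were called lower. At an unadjusted p under 0.05, 2 of the 18 were higher, both of ABHD5, and the share over all probe sets was not counted. Since the genes were assembled with this comparison known, nothing is read from these counts and shares. The calactin arrays all lay above the untreated ones for 2 member probe sets, against 9.36% of all probe sets, and all below for 4, against 19.0%. For the other 13 the groups overlapped. The median change over the 19 was -0.04, beside -0.05 over all probe sets.

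G0S2, the G0/G1 switch gene whose protein blocks ATGL, lies at chr1:209675412-209676390 (GRCh38.p14) and has 1 probe set, 213524_s_at. Its signal was 738, 1145 and 822 units in calactin replicates 1, 2 and 3, against 169.6, 243 and 169 units in untreated replicates 1, 2 and 3. The lowest calactin array thus lay far above the highest untreated one. The means were 902 ± 215 units with calactin and 194 ± 42.7 units without (SD, n = 3 each), and the log2 fold change was 2.12 ± 0.19 (SE). This was the third-largest rise among 19775 genes, each taken by its brightest probe set. Within replicate numbers the difference was 2.02, 2.16 and 2.18, so the 3 pairs lay much closer together than the arrays of a group. Over the 18 alternative settings the change stayed between 1.89 and 2.61.

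HILPDA, the hypoxia-inducible inhibitor of ATGL, lies at chr7:128455878-128458418. Its brighter probe set, 218507_at, read 250.4, 341 and 335 units in calactin replicates 1, 2 and 3, against 689, 629.6 and 807 units in untreated replicates 1, 2 and 3. Every calactin array lay below every untreated one. The log2 fold change was -1.16 ± 0.14 (SE, n = 3 each; limma adjusted p = 0.00119). The second probe set, 1554452_a_at, averaged 172 ± 20.5 units with calactin and 394 ± 38.7 units without, a change of -1.12 ± 0.13 (adjusted p = 7.91e-04). Both probe sets of HILPDA thus fell by nearly the same amount. Within replicate numbers the brighter one changed by -1.40, -0.85 and -1.23, the smallest fall being in replicate 2.

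PLIN2, the perilipin found on droplets of most cells, lies at chr9:19108388-19127492. Probe set 209122_at read 978, 1207 and 1173 units in calactin replicates 1, 2 and 3, against 1544, 1967 and 1799.6 units in untreated replicates 1, 2 and 3. The groups did not overlap, and the change was -0.65 ± 0.12 (adjusted p = 0.00631). The pairs were close, at -0.65, -0.70 and -0.61. The other PLIN2 probe set, 215895_x_at, whose suffix marks sequence shared with other transcripts, averaged 17.4 units with calactin and 10.5 without, below the array medians. Its difference of 0.32 ± 0.20 was in the other direction and was not called (adjusted p = 0.395). With the mean of both probe sets the PLIN2 call was lost (-0.17, adjusted p = 0.275).

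PLIN3, a perilipin that moves from the cytosol onto new droplets, lies at chr19:4838341-4867667. Its probe set 202122_s_at read 859.9, 711 and 885 units in calactin replicates 1, 2 and 3, against 1382, 1334 and 1269 units in untreated replicates 1, 2 and 3. The highest calactin array stood well below the lowest untreated one. The change was -0.69 ± 0.10 (adjusted p = 0.00235), and it was -0.67, -0.89 and -0.51 within replicate numbers.

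Stretches upstream of the transcript start are shown for members whose groups did not overlap and that have a promoter entry (RefSeq, GRCh38.p14). Of the 10 members, 6 were examined in this way, and no entry was found for HILPDA, MGLL and DGAT2. Each is 250 bases long, ends at the base before the start and is written 5′ to 3′ on the gene's strand. The G0S2 stretch is chr1:209675162-209675411 on the plus strand. That of PLIN2 is chr9:19127493-19127742 and that of PLIN3 is chr19:4867668-4867917, both on the minus strand. Capitals mark the letters ACGTG or GCGTG on either strand, the core to which hypoxia-inducible factors are known to bind.
G0S2: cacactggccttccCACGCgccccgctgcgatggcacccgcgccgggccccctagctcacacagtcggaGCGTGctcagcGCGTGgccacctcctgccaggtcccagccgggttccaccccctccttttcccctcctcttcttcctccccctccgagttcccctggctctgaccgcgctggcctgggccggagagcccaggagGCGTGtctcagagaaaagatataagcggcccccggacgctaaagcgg
PLIN2: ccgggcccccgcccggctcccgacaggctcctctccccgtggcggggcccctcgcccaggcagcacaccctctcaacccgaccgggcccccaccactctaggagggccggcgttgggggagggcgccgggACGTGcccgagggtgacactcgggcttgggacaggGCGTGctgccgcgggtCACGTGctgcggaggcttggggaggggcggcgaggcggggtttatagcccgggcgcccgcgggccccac
PLIN3: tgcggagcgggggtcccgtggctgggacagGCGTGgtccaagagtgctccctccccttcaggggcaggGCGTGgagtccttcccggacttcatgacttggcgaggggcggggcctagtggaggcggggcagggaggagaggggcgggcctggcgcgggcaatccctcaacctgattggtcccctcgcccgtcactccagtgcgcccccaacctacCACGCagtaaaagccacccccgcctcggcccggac

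The G0S2 stretch held 4 such matches, all GCGTG, the PLIN2 stretch 4 and the PLIN3 stretch 3. In PLIN2 one CACGTG, a palindrome, gave 2 of the 4, once on each strand. At least 1 match stood in 43.2% of 35116 upstream stretches of the same length, at least 3 in 7.76%, at least 4 in 3.22%, and CACGTG in 6.34%. The G0S2, PLIN2 and PLIN3 stretches held 69.2, 78.0 and 70.8% G and C. The shares over all stretches were not matched for this, so whether these stretches are rich in matches was not tested. Matches thus stood upstream of G0S2, which was higher with calactin, and of both perilipins, which were lower. For ABHD5, 1 match stood in the stretches of 2 of its 3 listed starts, and PNPLA2 and LIPE had 0. DGAT1 was left out of this search, so whether it has matches was not tested.

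Calls of both perilipins depended on the scaling of the arrays. Scaled to the hybridisation spikes, PLIN2 stood at -0.55 (adjusted p = 0.138) and PLIN3 at -0.59 (adjusted p = 0.0935). With poly-A spike scaling and the block, PLIN2 stood at -0.09 (adjusted p = 0.54) and PLIN3 at -0.13 (adjusted p = 0.333). That scaling moved the median of all genes to 0.30, from -0.06 as deposited. Relative to the median of all genes, PLIN2 was at -0.38 and PLIN3 at -0.42 there, and at -0.59 and -0.63 as deposited. Both perilipins are bright, and the median of genes above the median signal moved further, to 0.38 from -0.10. Relative to that median PLIN2 was at -0.47 and PLIN3 at -0.51, and at -0.56 and -0.60 as deposited. HILPDA kept its call under both spike scalings, at -0.60 (adjusted p = 0.039) with the poly-A spikes.

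**Figure D2:**
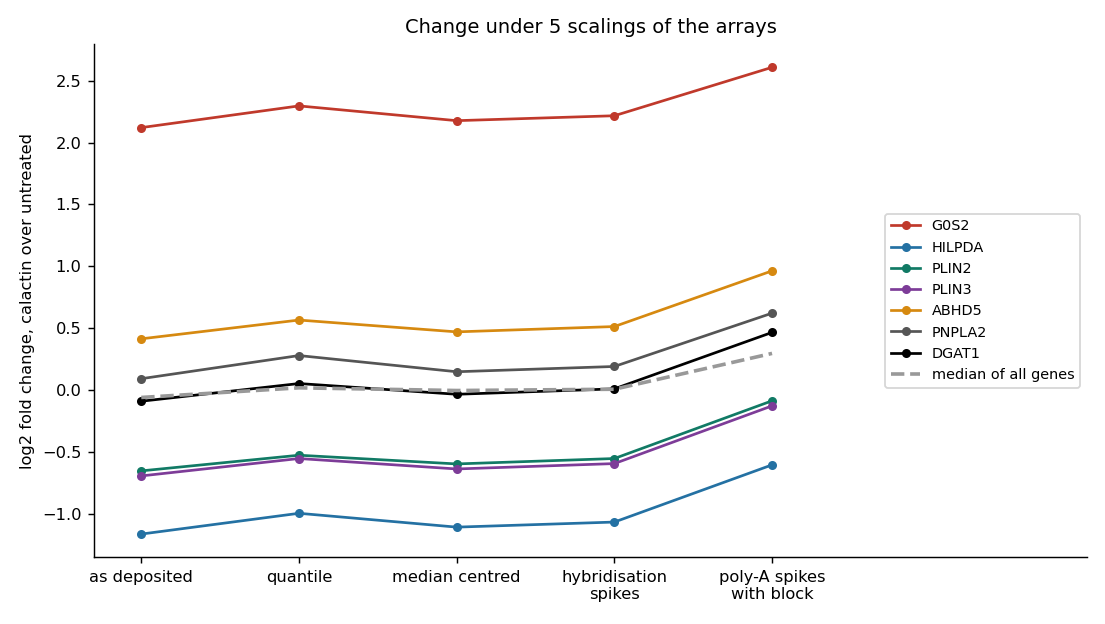
Log2 fold change, calactin over untreated, of 7 members (brightest probe set) and of the median of all genes under 5 scalings of the arrays. The order of the members stays the same, and under poly-A spike scaling with the replicate block all lines rise together, the median of all genes reaching 0.30.

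ABHD5, also called CGI-58, the coactivator that ATGL needs for full activity, lies at chr3:43690870-43734371 and has 4 probe sets. The brightest, 218739_at, read 805, 1193 and 876 units in calactin replicates 1, 2 and 3, against 614, 862 and 659.8 units in untreated replicates 1, 2 and 3. The groups overlapped, since untreated replicate 2 lay above calactin replicate 1. Each calactin array nevertheless exceeded the untreated array of its own number, by 0.38, 0.46 and 0.40 on the log2 scale. The difference of 0.41 ± 0.17 was not called without pairing (adjusted p = 0.179), and was called with the replicate block (0.41 ± 0.06, adjusted p = 0.00373). It was also called, with no pairing, after quantile normalization (0.57, adjusted p = 0.0485), and with poly-A spike scaling and the block (0.96, adjusted p = 0.00178), but in none of the other 15 alternatives.

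Probe set 213805_at of ABHD5 gave 355, 488 and 425 units in calactin replicates 1, 2 and 3, against 179.7, 389 and 204 units in untreated replicates 1, 2 and 3. Its difference was 0.75 ± 0.26 (adjusted p = 0.104), and it was called in 7 of the 16 alternatives that tested it. These were the replicate block (adjusted p = 0.00951), poly-A spike scaling with the block (1.27, adjusted p = 0.00153) and 5 with no pairing. The unpaired ones were quantile normalization (0.93, adjusted p = 0.037), hybridisation spike scaling (0.84, adjusted p = 0.048), robust estimation (adjusted p = 0.0402), the fit to brighter probe sets (adjusted p = 0.0233) and the fit without untreated replicate 2 (1.07, adjusted p = 0.00566). The third probe set, 213935_at, was at 0.28 ± 0.26 (adjusted p = 0.596) and the fourth, 232862_at, lay below the array medians on all 6 arrays. With the block, 2 of the 18 probe sets other than that of G0S2 were called higher, the 2 brightest of ABHD5, where 5.24% of all probe sets were. The block left 4 called lower, where 12.9% of all were.

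**Figure D3:**
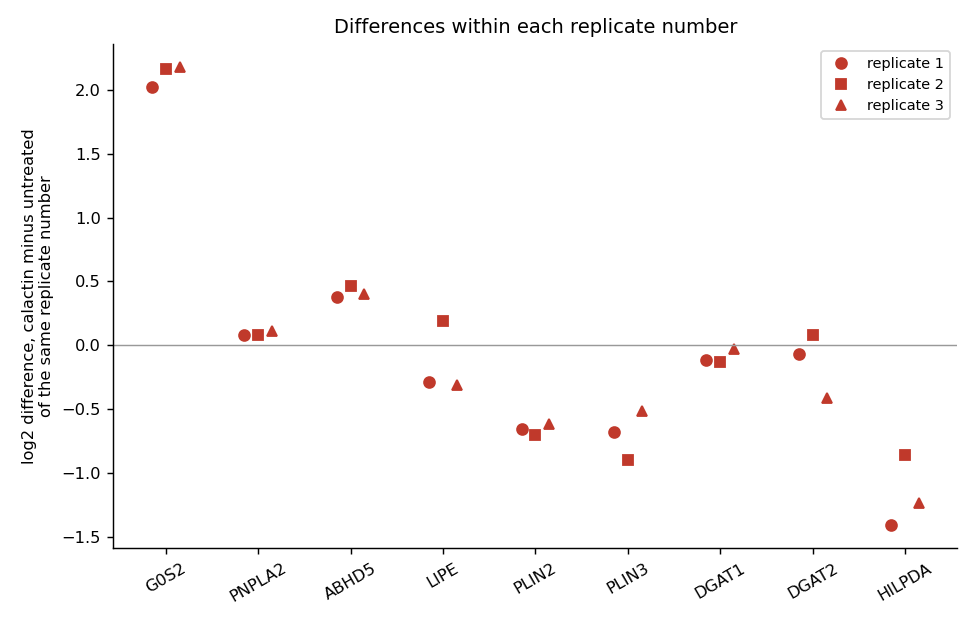
Log2 difference between the calactin and the untreated array of the same replicate number, for 9 members with their brightest probe set on at least 5 arrays above the array median. For G0S2, ABHD5, PLIN2, PLIN3 and HILPDA the 3 pairs fall on 1 side of 0, as they do, closer to 0, for PNPLA2 and DGAT1, and ABHD5 ranges from 0.38 to 0.46.

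The highest array followed the replicate number in most of the brighter member probe sets. In 9 of the 12 probe sets above the median on all arrays, the same replicate number was the highest in both groups. The share over all probe sets was not counted, so this is not read as a trait of the members. Replicate 2 was the highest in both groups for G0S2, for 3 ABHD5 probe sets and for PLIN2, and replicate 1 for both PNPLA2 probe sets and DGAT1. What the numbers shared is not given in the labels.

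PNPLA2, the gene of ATGL itself, lies at chr11:818914-825573. Probe set 39854_r_at read 482, 346 and 351 units in calactin replicates 1, 2 and 3, against 454, 325 and 324 units in untreated replicates 1, 2 and 3. The groups overlapped almost fully, while the pairs differed by 0.08, 0.08 and 0.11. The change of 0.09 ± 0.17 was not called (adjusted p = 0.83), with a 95% interval of -0.30 to 0.49. A second probe set, 212705_x_at, was at 0.19 ± 0.21 (adjusted p = 0.685). With poly-A spike scaling and the block, PNPLA2 was called higher at 0.62. The median of all genes was 0.30 there, and that of genes above the median signal 0.38. The interval of the first probe set ends at 1.40-fold higher.

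DGAT1, which makes triacylglycerol at the endoplasmic reticulum, had 1 probe set, 203669_s_at. It read 946, 794 and 733 units in calactin replicates 1, 2 and 3, against 1026, 869.6 and 746 units in untreated replicates 1, 2 and 3. The groups overlapped, and the change was -0.09 ± 0.14 (adjusted p = 0.783; 95% interval -0.40 to 0.22). It was positive, at 0.47 and called, under poly-A spike scaling with the block, and 0.01 and 0.05 under hybridisation spike scaling and quantile normalization, neither of them called. DGAT2, the other enzyme of this step, averaged 55.1 units with calactin and 63.2 without in its brighter probe set, 226064_s_at. DGAT2 lies at chr11:75768778-75801534, and its difference was -0.13 ± 0.20 (adjusted p = 0.774; 95% interval -0.58 to 0.32).

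The lipases of the later steps gave little signal. LIPE (chr19:42401514-42427388) averaged 40.4 ± 4.67 units with calactin and 47.1 ± 14.9 units without (SD, n = 3 each) in its brighter probe set 208186_s_at. Its change was -0.14 ± 0.22 (adjusted p = 0.797; 95% interval -0.63 to 0.36). MGLL (chr3:127689066-127823185) averaged 48.9 ± 8.09 units with calactin and 39.7 ± 24.9 units without in 225102_at, where the untreated arrays ran from 22.7 to 68.3 units. Its change was 0.30 ± 0.30 (adjusted p = 0.635; 95% interval -0.38 to 0.98). At this signal and with 3 arrays a group, changes of these sizes were not detectable for LIPE, MGLL and DGAT2. The dimmer probe sets of LIPE, MGLL and DGAT2 were at -0.12 ± 0.25, -0.04 ± 0.26 and 0.06 ± 0.23 (adjusted p = 0.855, 0.963 and 0.925). Under poly-A spike scaling with the block the brighter sets of LIPE and DGAT2 were at 0.19 and 0.22, below the median of all genes.

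**Figure D4:**
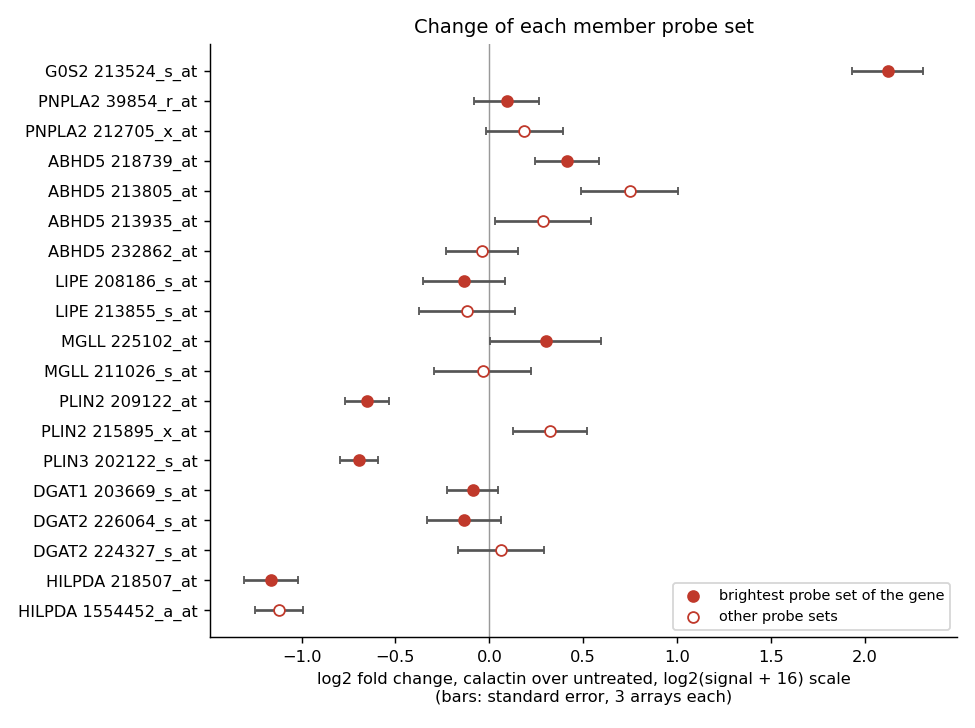
Log2 fold change, calactin over untreated, of the 19 member probe sets on the log2(signal + 16) scale, with standard errors (3 arrays each). Filled points are the brightest probe set of a gene. G0S2 stands at 2.12, the HILPDA probe sets at -1.16 and -1.12, and the PLIN2 probe sets on opposite sides of 0.

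Other genes of lipid metabolism were counted in 8 lists put together by function. Each gene was taken by its brightest probe set, with calls from the same fit. Over all 19775 genes, 4.41% were called higher and 15.2% lower, and the median change was -0.06. With the replicate block the shares were 6.46% and 19.1%. At an unadjusted p under 0.05 the share over all genes was not counted, so nothing is read from list counts at that cut.

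**Figure D5:**
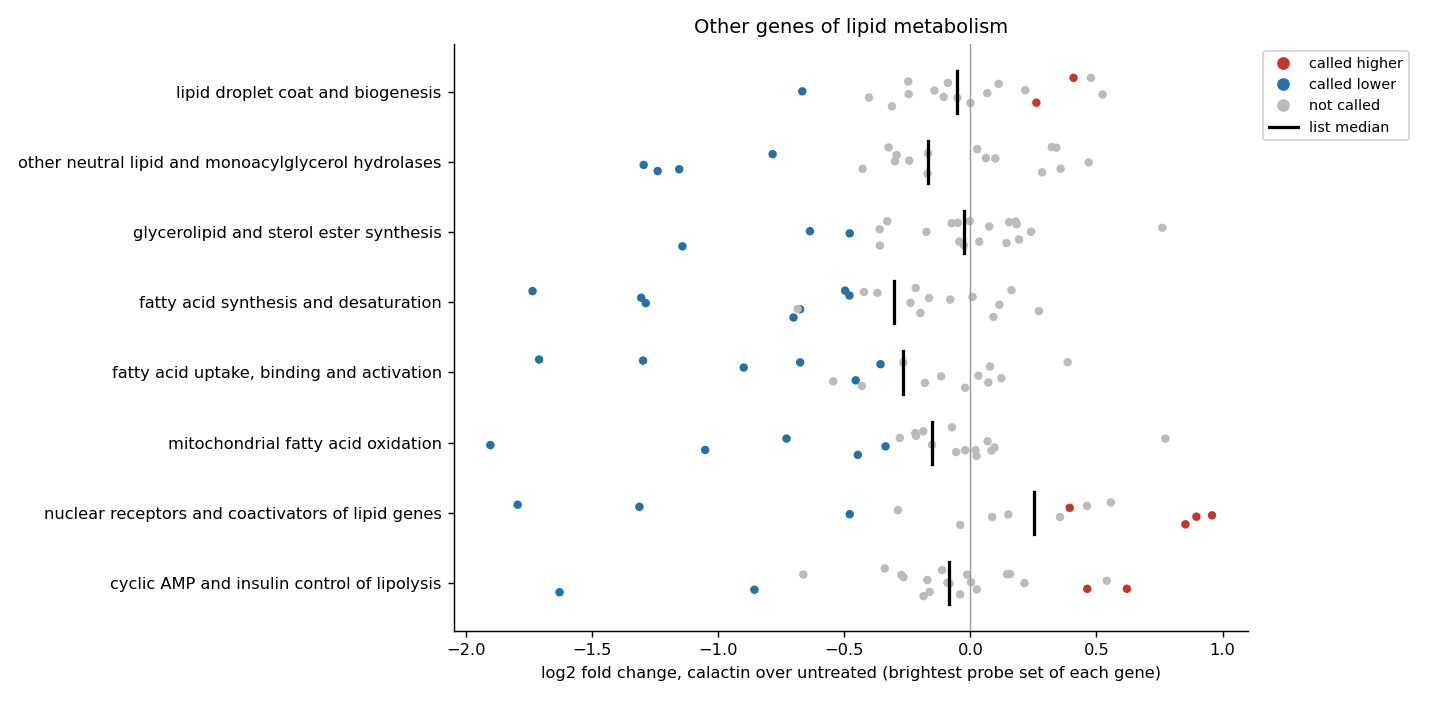
Log2 fold change, calactin over untreated, of each gene in 8 lists of lipid metabolism, with called genes coloured and the list median as a black bar. Medians run from -0.30 for fatty acid synthesis to 0.25 for nuclear receptors and coactivators, beside -0.06 for all genes. The 0.25 became 0.02 in the fit to probe sets above the median signal.

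Most droplet coat and biogenesis genes beyond the members were not called. Of 17 measured, 2 rose and 1 fell, with a median of -0.05, and 2 fell with the replicate block. The other perilipins were not called: PLIN1 averaged 23.9 units with calactin and 27.0 without, PLIN4 1.13 and 1.78, and PLIN5 68.7 and 65.2. LDAF1, which acts with seipin where droplets form, fell by 0.67 ± 0.14 (adjusted p = 0.0145), and its call was lost without calactin replicate 2 (0.0547) or untreated replicate 1 (0.0535). PCYT1A, which supplies phosphatidylcholine for the droplet surface, rose by 0.41 ± 0.11 (adjusted p = 0.0344), a call that failed (0.088 to 0.137) when calactin 2, calactin 3, untreated 1 or untreated 2 was left out. AUP1, a droplet protein, was at 0.26 ± 0.07 (adjusted p = 0.0485) and lost its call when any 1 of the 6 arrays was left out (0.059 to 0.15). All 3 calls were lost under hybridisation spike scaling, and that of LDAF1 also with the poly-A spikes.

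Of 19 other neutral lipid hydrolases, 0 rose and 4 fell in limma's test, with a median of -0.17, and 2 rose with the replicate block. At an unadjusted p under 0.05, 3 of the 19 were higher. CES2, a carboxylesterase, fell by 1.29 ± 0.11 (adjusted p = 2.58e-04), and its 3 probe sets were all called lower. NCEH1, which cleaves cholesteryl ester, fell by 1.24 ± 0.19, at 18.2 units with calactin and 65.1 without. LPL, the lipase that frees fatty acids from lipoproteins, fell by 1.15 ± 0.19, a call lost under poly-A spike scaling with the block (-0.66, adjusted p = 0.0685). DDHD1 fell by 0.78 ± 0.21 (adjusted p = 0.0388), in the only 1 of its 5 probe sets that was called. In the leave-one-out fits this call held only without calactin replicate 2 (0.0695 to 0.133 in the others). It failed under both spike scalings and quantile normalization (adjusted p = 0.0833), and with probe sets averaged (-0.33, adjusted p = 0.191).

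The enzymes that build glycerolipids were mostly not called. Of 21, 3 fell and 0 rose in limma's test (2 were higher at an unadjusted p under 0.05), with a median of -0.03, and 6 fell with the replicate block. GPD1L, related to the dehydrogenase that supplies glycerol 3-phosphate, fell by 1.14 ± 0.12 (adjusted p = 5.20e-04). AGPAT4 fell by 0.64 ± 0.16 (adjusted p = 0.0305), and LPIN1, a phosphatidate phosphatase, by 0.48 ± 0.12 (adjusted p = 0.0356). AGPAT4 and LPIN1 were called in the leave-one-out fits only when untreated replicate 1 was the array left out, with adjusted p of 0.0607 to 0.11 and 0.0615 to 0.128 in the others. Both calls were also lost under either spike scaling and quantile normalization. LPIN1 lost its call under median centring too (-0.42, adjusted p = 0.0502), and AGPAT4 with its probe sets averaged (-0.39, adjusted p = 0.104).

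Fatty acid synthesis and desaturation had the lowest median of the 8 lists, -0.30. Of 20 genes, 7 fell and 0 rose in limma's test, and 1 was higher both at an unadjusted p under 0.05 and with the replicate block. ELOVL6, which lengthens palmitate, averaged 522 units with calactin and 1765 without and fell by 1.74 ± 0.11 (adjusted p = 1.25e-04), with all 3 of its probe sets called lower. FASN, the fatty acid synthase, fell by 1.29 ± 0.17, while its other probe set was at 0.07. ACACA, which makes malonyl-CoA, fell by 0.68 ± 0.09 and ELOVL5, an elongase of polyunsaturated fatty acids, by 0.50 ± 0.06. The calls of ACACA and ELOVL5 were lost under both spike scalings and when probe sets of a gene were averaged, and ELOVL5 was at 0.07 with the poly-A spikes.

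Genes of fatty acid uptake, binding and activation gave 6 falls and 0 rises among 17 in limma's test (0 higher also at an unadjusted p under 0.05), with a median of -0.27. ACSL4, which prefers arachidonate, fell by 1.71 ± 0.14 in 202422_s_at (adjusted p = 2.46e-04), the only one of its 3 probe sets that was called. FABP5, a fatty acid binding protein, fell by 1.30 ± 0.21 and ACSL1, another acyl-CoA synthetase, by 0.90 ± 0.16 with both probe sets called. ACBD3 fell by 0.67 ± 0.10, a call lost under both spike scalings. ACSL3, the droplet's own acyl-CoA synthetase, was not analysed here.

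Of 19 genes listed under mitochondrial fatty acid oxidation, 5 fell and 0 rose in limma's test (0 higher also at an unadjusted p under 0.05), with a median of -0.15. CPT2, of the carnitine shuttle, averaged 147 units with calactin and 605 without and fell by 1.90 ± 0.18 (adjusted p = 4.04e-04), with both probe sets called. ECI2, an enoyl-CoA isomerase, fell by 1.05 ± 0.09 (adjusted p = 2.38e-04). CPT1A, which commits fatty acids to oxidation, fell by 0.45 ± 0.08, and was not called with its probe sets averaged or under either spike scaling, at 0.11 with the poly-A spikes. CPT1C, a relative of CPT1A found mainly at the endoplasmic reticulum, fell by 0.73 ± 0.17 (adjusted p = 0.0248). That call was lost without any 1 calactin array or untreated replicate 1 or 3 (0.0661 to 0.104) and under both spike scalings.

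The list of nuclear receptors and coactivators went both ways, with a median of 0.25 over 14 genes, 4 of which rose and 3 fell. It also holds ANGPTL4 and PDK4, which are neither receptors nor coactivators and were not called. In the fit to probe sets above the median signal the list median was 0.02. NCOA1, a coactivator, rose by 0.85 ± 0.13 (adjusted p = 0.00354) with all 4 probe sets called, and RXRA, the partner of the PPAR receptors, rose by 0.90 ± 0.16 while its other probe set was at -0.30. PPARGC1B, a coactivator of mitochondrial genes, fell by 1.79 ± 0.13 (adjusted p = 1.63e-04) and NCOA2 by 1.31 ± 0.19. With probe sets averaged by gene, RXRA and NCOA2 were no longer called.

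Of 22 genes of the cyclic AMP and insulin control of lipolysis, 2 rose and 2 fell, with a median of -0.09. ADCY7 and ADCY3, which make cyclic AMP, fell by 1.63 ± 0.13 and 0.86 ± 0.15, though the second ADCY7 probe set was at 0.02. The ADCY3 call was lost under poly-A spike scaling with the block (-0.32, adjusted p = 0.17). FOXO3, a factor restrained by insulin, rose by 0.62 ± 0.15 (adjusted p = 0.0236), and PRKACB, a catalytic subunit of protein kinase A, by 0.46 ± 0.12 (adjusted p = 0.04). The FOXO3 call was lost without any 1 calactin array or untreated replicate 1 or 3 (0.0551 to 0.106), and the PRKACB call without any 1 of the 6 arrays (0.0584 to 0.138). Under hybridisation spike scaling neither was called, nor was PRKACB with its probe sets averaged.

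The gene pattern most like that of G0S2 over the 6 arrays was that of TMEM30A (232591_s_at, Pearson r = 0.9996), followed by FAM83A, PRKXP1, RBM39 and NLK at 0.998 to 0.999. TMEM30A averaged 784 ± 88.4 units with calactin and 383 ± 33.8 units without (SD, n = 3 each). In all 5 genes replicate 2 was the highest array of both groups, as in G0S2, which follows from choosing them by this correlation. Of 12558 genes compared, each by its most correlated probe set above the median signal, 1139 had a correlation with G0S2 above 0.9. For TMEM30A, PRKXP1 and NLK this was not the brightest probe set of the gene. These values are a description over 6 arrays that all genes share, and the difference between the groups enters each of them. NLK, a kinase, had an adjusted p of 0.071 and was not called, while the other 4 were called higher.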

How the data were processed

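RNA of 3 calactin and 3 untreated K562 samples was hybridised to 1-colour Affymetrix arrays, per the labels' protocols. The authors deposited a linear intensity for each probe set on each array. How these were summarised and scaled is not given in the sources used. Genes were named from GEO's platform annotation (41091 probe sets with 1 symbol, 1801 with several, 11721 with none), and 0 symbols had to be updated. The deposited intensities were used as they are, as log2(intensity + 16), and tested in limma 3.58.1 (R 4.3.3; lmFit, eBayes with a trend, two-sided, Benjamini-Hochberg threshold 0.05) over 54613 probe sets, leaving out 62 control probe sets. A fold change on this scale understates the change of dim probe sets. Lists used the probe set with the highest mean of each of 19775 genes. Tables and figures were made with pandas 2.3.3 and matplotlib 3.10.9. The number of arrays, 3 a group, limits the precision.

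The members and lists were chosen with earlier results of these data known. Named genes are the 10 members, up to 4 called genes of smallest p per list, the 5 genes most correlated with G0S2 and markers of the line. Replicate numbers come from the labels. Deviations from the group means of same-numbered arrays correlated at 0.416, 0.322 and 0.243 for numbers 1, 2 and 3. The numbers were therefore taken to pair the samples, and blocked values are given where a member's call changes. For the lists the changes with the block are given only in part. With the block 50 list genes were called, against 38 as deposited. The 18 alternatives cover scaling, pseudocounts of 1 and 64, the probe sets tested, the variance model, the block and leaving out each array.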

Additional observations from a re-analysis of the deposited data

How the results depend on the processing

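Of 54613 probe sets 7611 were called, 2011 higher and 5600 lower with calactin, 73.6% of calls being lower. Quantile normalization gave 3379 higher and 4082 lower (54.7% lower), and 3 member probe sets higher. Median centring gave 2587 higher and 5006 lower (65.9% lower). Scaling to 18 hybridisation spike probe sets left 3430 calls, 1123 higher and 2307 lower (67.3%). These held 2 member probe sets higher, 2 lower and 19 list genes, against 38 list genes as deposited. Scaling to 24 poly-A spike probe sets with the replicate block gave 11966 calls, 10582 higher and 1384 lower (11.6%). These held 9 member probe sets, 7 higher and 2 lower, and 63 list genes. The 7 were of G0S2, PNPLA2, ABHD5 and DGAT1, and the 2 were of HILPDA. LPIN1, ELOVL5 and CPT1A were then at 0.082, 0.074 and 0.11. With 1 probe set per gene 4269 were called (984 higher, 3285 lower), and with probe sets averaged by gene 3653 (797 higher, 2856 lower), 3 of them members, 2 lower, fewer features being tested in both. Member probe sets called higher were 2 among probe sets above the median signal, 2 with robust estimation and 3 with the replicate block, which called 9908. These member counts include G0S2, which was chosen by this comparison, and the added calls with the block, quantile normalization, robust estimation, brighter probe sets and hybridisation spikes were of ABHD5. The block moved no other member's call. Leaving out 1 array gave 4947 to 6781 calls, 1222 to 1949 higher and 3640 to 4832 lower. Among them were 5 to 6 member probe sets (1 to 2 higher, 4 to 4 lower) and 25 to 33 list genes. Without untreated replicate 3 there were 4947 calls, and 1222, 1227 and 1307 were higher without calactin 2, calactin 3 and untreated 3. Without the variance trend PCYT1A, AUP1, LPIN1, FOXO3 and PRKACB were no longer called. The cause of these changes was not tested. With 3 arrays a group, members near the median signal are limited by their spread. Both HILPDA probe sets kept their call in every alternative that tested them, as did 13 named list genes in all 18.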

Other observations

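The poly-A spikes, added to the RNA before labelling, differed between replicate numbers. Relative to their mean over all arrays they stood at 0.73, 1.09 and -2.68 on the log2 scale in calactin replicates 1, 2 and 3, and at 1.28, 1.83 and -2.25 in untreated replicates 1, 2 and 3. Replicate 3 was the lowest in both groups, and the calactin array was below the untreated array of its number in all 3 pairs. Scaling to these spikes therefore moves every calactin value up relative to its untreated pair, by construction. The hybridisation spikes stood at -0.31, -0.12 and 0.28 in calactin replicates 1, 2 and 3, and at 0.12, 0.01 and 0.02 in untreated replicates 1, 2 and 3.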
